A study of Mus musculus with 8 samples.

Results

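The transcripts examined here are those of 9 factors of nonsense-mediated mRNA decay (NMD), the UPF factors Upf1, Upf2, Upf3a and Upf3b and the SMG factors Smg1, Smg5, Smg6, Smg8 and Smg9. They were chosen by gene symbol, as 9 of 38991 gene identifiers in the files, and all 9 passed the filter on low values, which kept 12462 genes. RNA was sequenced from mouse embryonic stem cells (C57BL/6, male lines from blastocysts of embryonic day 3.5) in 2i medium, which holds cells in the ground state of pluripotency. The labels give PD0325901 at 0.5 µM for every library of both genotypes. There were 4 libraries of the genotype labelled iPHet and 4 of iPKO; the labels do not spell these names out, and iPHet is taken here as the reference. Both genotypes received 2 µM 4-hydroxytamoxifen for 48 hours and then fresh 2i medium, the drug being the one used to induce a deletion at Prmt5, so the iPHet cells share the exposure. The recombinase and its promoter are not named. The labels name 1 line per genotype for most experiments (PC1 for iPHet and PC4 for iPKO), so genotype and line cannot be told apart. Separate cultures are not stated for the 4 libraries of a genotype. If they are repeats of 1 culture, the p-values below measure technical spread alone.

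NMD destroys transcripts on which a ribosome stops too early. UPF1, an RNA helicase, gathers at the stalled ribosome with UPF2 and UPF3B, which link it to exon junction complexes left downstream by splicing. The kinase SMG1, held in check by its partners SMG8 and SMG9, phosphorylates UPF1. Phosphorylated UPF1 then recruits the nuclease SMG6, which cuts the RNA, and the adaptor SMG5, which leads to deadenylation and decapping. Several of these factors are encoded by transcripts that are themselves substrates of the pathway, so that their levels can rise when decay is impaired. PRMT5 methylates Sm proteins of the spliceosome, and faulty splicing is a source of premature stop codons.

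Values are FPKM, fragments scaled to transcript length and library size. A gene is called, and said to have risen or fallen, at a limma adjusted p under 0.05 over all tested genes on the log2(FPKM + 1) scale, which understates changes of low genes. Prmt5 was 52.8, 70.8, 54.3 and 72.2 FPKM in iPHet 1 to 4 and 11.8, 14.5, 12.4 and 15.0 FPKM in iPKO 1 to 4. All iPKO libraries lay below all iPHet libraries (log2 change -2.13, SE 0.13, limma adjusted p = 0.000171), and the value per gene also counts exons outside any deletion. In bulk RNA, fewer cells of a type and less RNA per cell cannot be told apart. Within each genotype, libraries 1 and 3 resembled each other, as did libraries 2 and 4, while these odd-numbered and even-numbered sets stood apart in expression. The labels name no batch, so changes are also given within each set, and the correlation estimated within the pairs (libraries 1 and 3, or 2 and 4) was 0.839. With that correlation in the fit, 52 genes were called in place of 1973. Of 9 naive stem cell markers, 9 were tested and 1 (Sox2, lower) was called, summing to 2360 to 3790 FPKM in iPHet and 2760 to 2980 FPKM in iPKO. Fibroblast markers, for the feeder cells on which the lines were derived, summed to 1.96 to 2.82 FPKM in iPHet and 1.60 to 2.07 FPKM in iPKO, with Lum and Postn listed at 0. The 10 markers of early differentiation summed to 12.4 to 36.1 FPKM in iPHet and 12.0 to 39.3 FPKM in iPKO, and 0 of them were called (3 tested). Most of that sum was Krt18, at 29.2, 6.91, 29.9 and 7.96 FPKM in iPHet 1 to 4 and 31.4, 6.73, 33.2 and 6.83 FPKM in iPKO 1 to 4. Sox1 was higher in every iPKO library than in any iPHet library (means 1.01 and 1.71 FPKM in iPHet and iPKO, limma adjusted p = 0.0524). The depth of the libraries is unknown, since the files hold no counts. The spacing of very low values put it, relative to iPHet 1 and to the width of a histogram bin, between 0.763 (iPHet 3) and 1.24 (iPKO 1), and the number of libraries limits the precision.

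The decay factors differed little between the genotypes, and in no common direction. Of the 9 members 2 fell (Smg6 and Smg8), 0 rose and 7 were not called. Among all tested genes 15.8% were called, 6.3% higher and 9.53% lower (785 and 1188 genes). With each library centred on its median these numbers were 954 higher and 823 lower, and with quantile normalization 936 and 946. The members' median log2 change was 0.0025, beside -0.044 over all tested genes, and their median absolute change was 0.17, beside 0.19. Summed over the 9 members, the level was 214 ± 16.8 FPKM over the iPHet libraries and 216 ± 15.2 FPKM in iPKO (SD, n = 4 each), with ranges of 198 to 232 and 202 to 232 FPKM. The largest parts of this sum were Smg5 and Upf1, whose changes, neither of them called, had opposite signs (log2 change 0.17 and -0.18). Every Smg5 value also lay outside the authors' confidence bounds for it.

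How many members were called depended on how the libraries were treated, and so did the share of all genes. The number stayed at 2 with a pseudocount of 0.1 (16.1% of all genes called), with no filter (9.02%), with a minimum of 5 FPKM (18.4%), in protein-coding genes alone (17.1%) and with the middle of the authors' bounds in place of FPKM (15.9%). It was 0 with quantile normalization (15.1%) and with median centring (14.3%), although Smg6 and Smg8 kept their direction in both. With the replicate number as a block it was 4 (27.5%), with a term for odd and even numbers 4 (37.9%), in libraries 1 and 3 alone 5 (42.7%) and in libraries 2 and 4 alone 2 (36.8%), which were Smg5, higher, and Smg8, lower. Averaging libraries 1 with 3 and 2 with 4 left 0 members called (0.0562%, or 0.0481% with the odd and even term), as did the correlation within pairs (0.417%). Without iPHet 1 it was 1 (11.2%), without iPKO 2 it was 2 (11.9%), and it was 0 without iPHet 2 (11.2%), iPHet 3 (11.3%), iPHet 4 (10.2%), iPKO 1 (10.6%), iPKO 3 (11.5%) or iPKO 4 (11.5%).

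**Figure D1:**
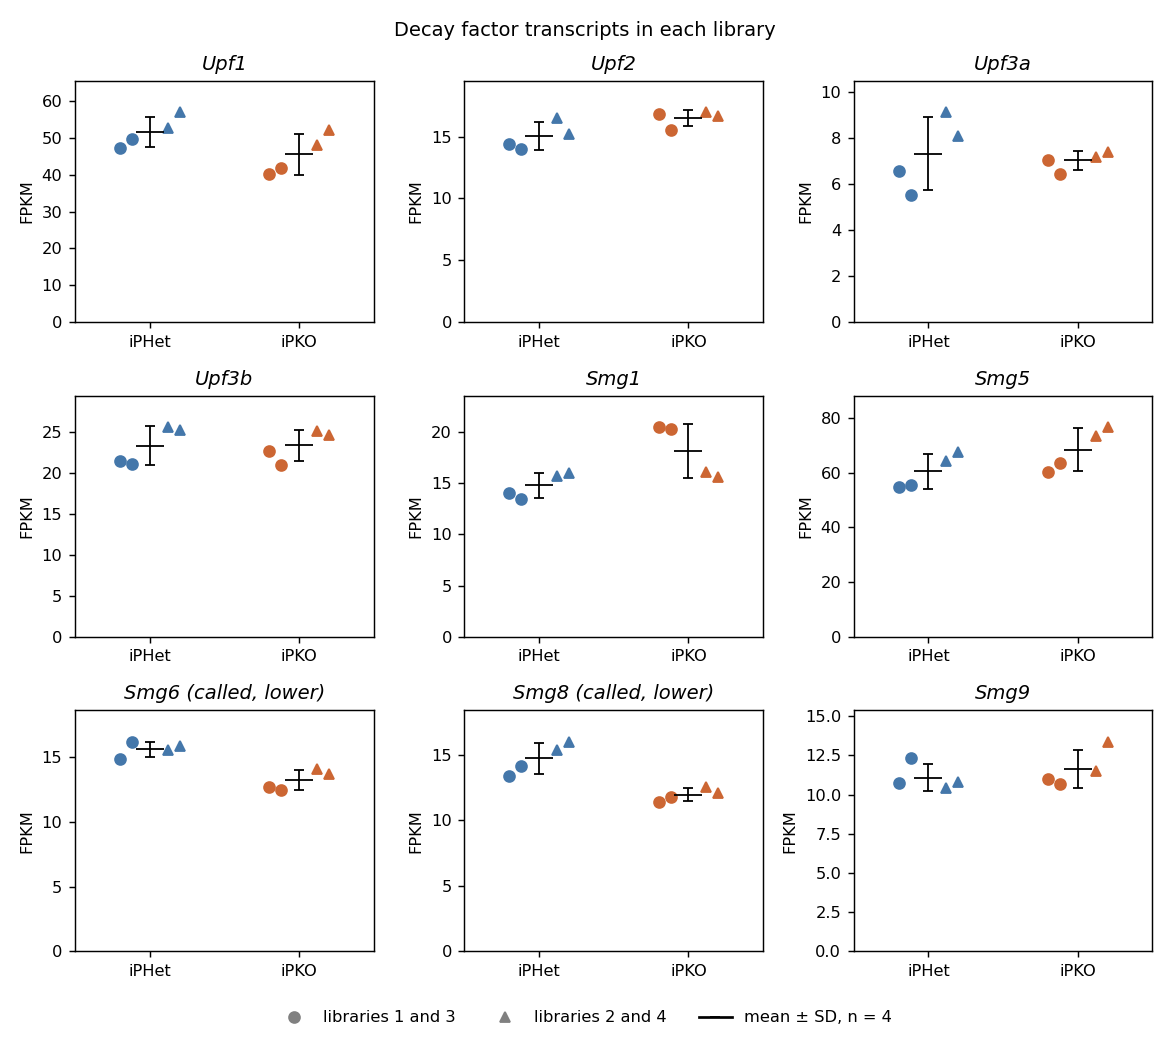
FPKM (vertical axis, from 0) of each of the 9 decay factors in the 4 iPHet (blue) and 4 iPKO (orange) libraries, circles for libraries 1 and 3, triangles for libraries 2 and 4, with the mean and SD (n = 4) in black. The iPKO points of Smg6 and Smg8 lie below all of their iPHet points, and Smg1 is high only in iPKO 1 and 3 (20.5 and 20.3 FPKM). In Upf1, Upf3a, Upf3b, Smg5 and Smg8 the triangles lie above the circles of the same genotype.

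In iPHet cells Smg5 (60.5 ± 6.34 FPKM) and Upf1 (51.7 ± 4.13 FPKM) were the most abundant members per length (SD, n = 4 each), and their ranges overlapped. Their order turned with the middle of the authors' bounds in place of FPKM, at 48.5 ± 6.87 for Smg5 and 52.1 ± 4.21 for Upf1 (SD, n = 4 each). Upf3b followed at 23.4 ± 2.38 FPKM. Smg6, Upf2, Smg1 and Smg8 stood together at means of 15.6, 15.0, 14.8 and 14.7 FPKM and did not differ beyond their spread. Smg9 (11.1 ± 0.867 FPKM) and Upf3a (7.32 ± 1.59 FPKM) were lowest (SD, n = 4 each). In iPKO, Smg1 lay above Upf2 in libraries 1 and 3 and below it in libraries 2 and 4, and the range of Smg8 (mean 11.9 FPKM) overlapped that of Smg9 (11.6 FPKM).

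Smg6 encodes the endonuclease that cuts NMD substrates near the stop codon. The gene (ENSMUSG00000038290) lies on chromosome 11 from 74925823 to 75164448 of mm10. Its transcript was 14.8, 15.6, 16.2 and 15.9 FPKM in iPHet 1 to 4 and 12.7, 14.1, 12.5 and 13.7 FPKM in iPKO 1 to 4. All iPKO libraries lay below all iPHet libraries, a separation that 15.0% of tested genes showed in this direction (10.1% were separated the other way and 25.1% in either). The mean FPKM fell by 15.3%, and the mean log2(FPKM + 1) fell by 0.23 (SE 0.061, limma adjusted p = 0.042). The log2 change was -0.28 between libraries 1 and 3 of each genotype and -0.17 between libraries 2 and 4. On the opposite strand Smg6 overlaps Srr (12.8 FPKM), whose reads can be exchanged with it since the strand of the counting is not given. The call ended with median centring (adjusted p = 0.159), with quantile normalization (0.120), with a correlation estimated within the pairs (0.478), in libraries 2 and 4 alone (0.0526) and without any 1 library except iPKO 2 (up to 0.101).

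Smg8 encodes a regulatory partner of the SMG1 kinase. It (ENSMUSG00000020495) lies on the same chromosome, 11, from 87077732 to 87086774. The transcript was 13.4, 15.4, 14.2 and 15.98 FPKM in iPHet 1 to 4 and 11.4, 12.5, 11.8 and 12.0 FPKM in iPKO 1 to 4, again with no overlap between the genotypes. It overlaps the processed pseudogene Gm9378 (0.979 FPKM) on the opposite strand. The mean FPKM fell by 18.8%, and the mean log2(FPKM + 1) fell by 0.28 (SE 0.070, limma adjusted p = 0.032). The log2 change was -0.23 for libraries 1 and 3 and -0.33 for libraries 2 and 4. The call of Smg8 ended with median centring (adjusted p = 0.128), with quantile normalization (0.108), with a correlation estimated within the pairs (0.383) and without any 1 library except iPHet 1 or iPKO 2 (up to 0.083).

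The kinase gene Smg1 moved in the odd-numbered libraries only. It (ENSMUSG00000030655) lies on chromosome 7 from 118131308 to 118243637. Its transcript was 14.1, 15.7, 13.5 and 15.98 FPKM in iPHet 1 to 4 and 20.5, 16.05, 20.3 and 15.6 FPKM in iPKO 1 to 4. iPKO 1 and 3 stood above all iPHet libraries, while iPKO 2 and 4 lay beside the iPHet libraries of the same numbers. In the odd-numbered libraries the ratio of means was 1.48 (log2 change 0.54), and in the even-numbered ones it was 0.999 (log2 change -0.00095). Over all 8 libraries the log2 change of 0.27 was not called (SE 0.11, limma adjusted p = 0.134). The difference between both sets of libraries was 0.54 (SE 0.055, limma adjusted p = 0.0019 for the interaction), a call that 28.5% of all tested genes shared and 1 of the 9 members. That test has 2 libraries of each genotype in each set, so its SE measures the spread within these pairs alone. If the libraries of a pair are repeats of 1 culture, it holds no measure of the spread between cultures. With the same limit, in libraries 1 and 3 alone Smg1 was called higher (limma adjusted p = 0.0063).

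Promoter sequences of RefSeq (build GRCm38.p6, 250 bases before to 50 after the start) were matched for 9 of 9 members. Those of both called members and of Smg1, whose change differed between the sets of libraries, are shown 5′ to 3′ on the gene's strand, because they are the members on which the genotype comparison turns. Capitals mark matches, on either strand, to GGGCGG (SP factors), CCAAT (NF-Y), CCGGAAG (ETS factors), GCATGCGC (NRF1), TGACGTCA (the cAMP response element) and TATAAA (the TATA box).
Smg6, chr11:74925604-74925903, plus strand: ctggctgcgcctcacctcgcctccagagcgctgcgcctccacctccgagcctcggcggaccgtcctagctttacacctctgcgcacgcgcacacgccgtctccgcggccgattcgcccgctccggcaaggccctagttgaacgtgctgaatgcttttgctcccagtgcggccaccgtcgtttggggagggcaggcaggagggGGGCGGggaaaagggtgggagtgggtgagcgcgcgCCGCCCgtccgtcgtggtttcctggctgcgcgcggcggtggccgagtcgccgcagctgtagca
Smg8, chr11:87086728-87087027, minus strand: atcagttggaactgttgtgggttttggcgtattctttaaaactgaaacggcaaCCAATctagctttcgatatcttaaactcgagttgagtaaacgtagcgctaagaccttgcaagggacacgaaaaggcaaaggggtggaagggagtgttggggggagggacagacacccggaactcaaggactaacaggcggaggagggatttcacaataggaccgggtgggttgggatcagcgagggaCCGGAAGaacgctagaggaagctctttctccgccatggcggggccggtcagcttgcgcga
Smg1, chr7:118243588-118243887, minus strand: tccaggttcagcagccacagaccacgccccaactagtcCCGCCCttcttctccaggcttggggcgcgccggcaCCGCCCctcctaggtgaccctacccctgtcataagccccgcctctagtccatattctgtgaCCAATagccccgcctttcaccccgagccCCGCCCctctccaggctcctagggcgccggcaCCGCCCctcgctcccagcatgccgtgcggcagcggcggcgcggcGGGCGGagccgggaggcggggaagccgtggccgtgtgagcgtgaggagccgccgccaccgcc
The promoters of Smg6 and Smg8 shared none of the motifs searched. The Smg6 window was 70.7% G or C with 2 GGGCGG matches, while that of Smg8 was 53.3% G or C with 0 of them, 1 CCAAT and 1 CCGGAAG. The Smg1 window was 72.0% G or C, with 5 GGGCGG matches and 1 CCAAT. Across 32851 promoters of the same length the median was 52.7% G or C. This background was not limited to the genes tested here, so the members were not set against expressed genes alone. GGGCGG was present in 7 of 9 members and in 35.7% of all promoters, CCAAT in 4 members and in 37.4%, and CCGGAAG in 1 member and in 8.86%. GCATGCGC was present in 2 members (Upf1 and Smg9) and in 2.71% of promoters, and TGACGTCA and TATAAA were in 0 members and in 1.79% and 13.6%. A match describes letters in this window and is no evidence of binding.

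Smg9, the other partner of the kinase (ENSMUSG00000002210, chromosome 7 from 24399619 to 24422778), was 10.8, 10.4, 12.4 and 10.8 FPKM in iPHet and 10.97, 11.5, 10.7 and 13.4 FPKM in iPKO, in the order of the library numbers. The genotypes overlapped, and the log2 change was 0.061 (95% interval -0.14 to 0.26, limma adjusted p = 0.672). It was -0.087 for libraries 1 and 3 and 0.21 for libraries 2 and 4. Within a library, the ratio of Smg1 to Smg8 does not depend on the scaling between libraries. That ratio was 1.05, 1.02, 0.952 and 1.00 in iPHet 1 to 4 and 1.798, 1.28, 1.72 and 1.30 in iPKO 1 to 4. It was higher in every iPKO library, at means of 1.01 ± 0.0424 and 1.53 ± 0.274 (SD, n = 4 each), and since the pair was chosen after its values were seen it is given with no test. In the even-numbered libraries the higher ratio came with the lower Smg8 alone, and in the odd-numbered ones with higher Smg1 as well.

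Upf1 encodes the helicase at the centre of the pathway. The gene (ENSMUSG00000058301) lies on chromosome 8 from 70331522 to 70353273 and overlaps Cers1, which was at 1.02 FPKM on the opposite strand. Upf1 was 47.3, 52.7, 49.7 and 56.9 FPKM in iPHet 1 to 4 and 40.1, 48.1, 41.9 and 52.1 FPKM in iPKO 1 to 4. The genotypes overlapped, but within the odd-numbered and within the even-numbered libraries each iPKO value lay below both iPHet libraries. The log2 change was -0.18 (SE 0.098, 95% interval -0.41 to 0.042, limma adjusted p = 0.241), and it was not called. With the replicate number as a block Upf1 was called lower (adjusted p = 0.0339), where 16.6% of all genes were, and with the correlation within pairs it was not (0.688).

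Upf2, which bridges UPF1 and UPF3, lies on chromosome 2 from 5951469 to 6056703 (ENSMUSG00000043241). It was 14.4, 16.5, 14.0 and 15.2 FPKM in iPHet 1 to 4 and 16.8, 17.0, 15.5 and 16.6 FPKM in iPKO 1 to 4. The iPKO values lay higher within each set of libraries, with a log2 change of 0.13 that was not called (SE 0.067, 95% interval -0.027 to 0.28, limma adjusted p = 0.234). The deposited value of iPHet 4 lay outside its own confidence bounds of 20.2 to 22.7 FPKM. With the middle of the bounds in place of FPKM the change was 0.012 (adjusted p = 0.958).

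Upf3a and Upf3b are paralogs that bind UPF2, and UPF3B has the stronger activity in decay. Upf3b (ENSMUSG00000036572, chromosome X from 37091678 to 37110322) was 21.5, 25.6, 21.1 and 25.2 FPKM in iPHet 1 to 4 and 22.7, 25.2, 21.0 and 24.6 FPKM in iPKO 1 to 4. These values followed the odd and even numbers and not the genotype, with a log2 change of 0.0025 (95% interval -0.20 to 0.21, limma adjusted p = 0.989). Upf3a (ENSMUSG00000038398, chromosome 8 from 13785615 to 13798538) was 6.55, 9.11, 5.53 and 8.08 FPKM in iPHet 1 to 4 and 7.06, 7.20, 6.45 and 7.41 FPKM in iPKO 1 to 4. Its iPHet libraries spread widely around the iPKO ones, with a log2 change of -0.033 that turned to 0.016 with quantile normalization (95% interval of the former -0.34 to 0.28, limma adjusted p = 0.894). It was 0.14 for libraries 1 and 3 and -0.21 for libraries 2 and 4. The ratio of Upf3a to Upf3b was 0.311 in iPHet and 0.301 in iPKO on average. On the log2 scale it differed by -0.037 (exact two-sided permutation p = 0.743), with means of -1.70 ± 0.18 and -1.73 ± 0.055 (SD, n = 4 each).

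Smg5, the adaptor that joins phosphorylated UPF1 to the decay machinery (ENSMUSG00000001415), lies on chromosome 3 from 88336260 to 88362337. It was 54.8, 64.3, 55.5 and 67.4 FPKM in iPHet 1 to 4 and 60.2, 73.5, 63.4 and 76.7 FPKM in iPKO 1 to 4. Within each set the iPKO libraries lay above both iPHet libraries, at a ratio of 1.12 for libraries 1 and 3 and 1.14 for libraries 2 and 4, while over all libraries the genotypes overlapped. The log2 change of 0.17 was not called (SE 0.10, 95% interval -0.066 to 0.41, limma adjusted p = 0.294). With the replicate number as a block Smg5 was called higher (adjusted p = 0.0251), where 10.9% of all genes were, and with the correlation within pairs it was not (0.662).

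In all 8 libraries the deposited Smg5 value exceeded its own upper bound. In iPHet 1, for example, the FPKM was 54.8 with bounds of 40.1 to 43.2. Of the 72 member values 9 lay outside their bounds, 8 of Smg5 and 1 of Upf2. Over genes averaging 5 FPKM or more, 29.7% of values did. Among those 8580 genes 21.8% were outside in all 8 libraries. How the authors' program set bounds apart from the value is not given in the sources used here. From the middle of the bounds the log2 change of Smg5 was 0.11 (limma adjusted p = 0.558), and Smg6 and Smg8 remained called (0.0494 and 0.0361).

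**Figure D2:**
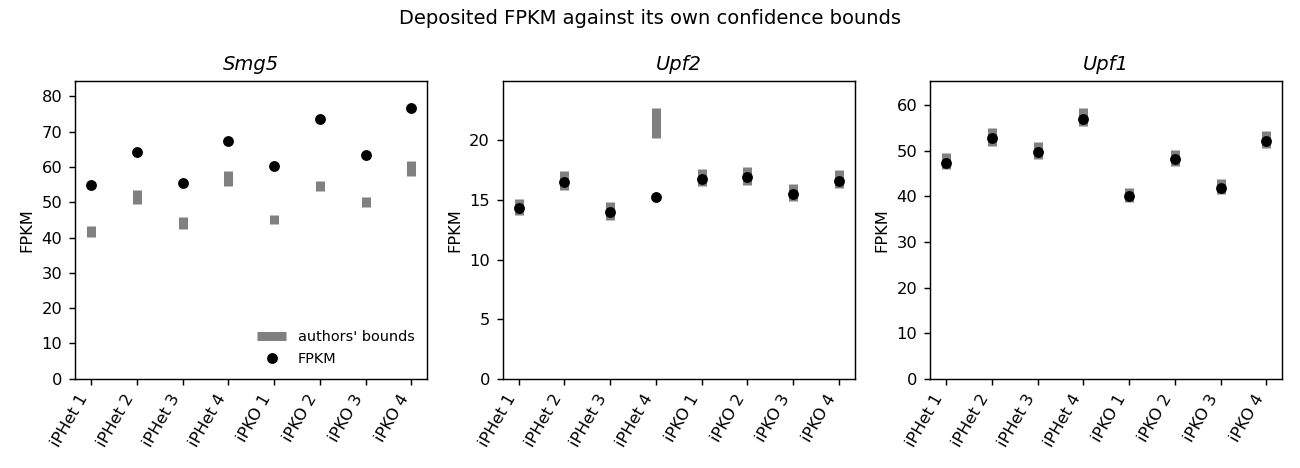
Deposited FPKM (black points) and the authors' confidence bounds (grey bars) for Smg5, Upf2 and Upf1 in each of the 8 libraries, vertical axis in FPKM from 0. All 8 Smg5 points lie above their bars and the Upf2 point of iPHet 4 (15.2 FPKM) lies below its bar, while the Upf1 points lie within theirs.

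Upf1, Smg6 and Smg8 were lower, and Upf2 and Smg5 higher, in both the odd-numbered and the even-numbered libraries with no overlap inside either set. Such agreement was present in 42.6% of all tested genes (17.4% higher and 25.1% lower). From the middle of the authors' bounds only Upf1, Smg6 and Smg8 of the 9 members had it, and with median centring Smg1 did as well as these 5. Upf3a, Upf3b, Smg1 and Smg9 had opposite signs in both sets, the value of Smg1 in libraries 2 and 4 being near 0. The members also varied with the library number. In both genotypes 8 of 9 members had a higher mean in the even-numbered libraries, the exceptions being Smg9 in iPHet and Smg1 in iPKO. The median member difference was 0.18 in iPHet and 0.14 in iPKO on the log2 scale, where 41.5% and 45.8% of all genes were higher in the even-numbered libraries. For 5 of 9 members (Upf2, Upf3a, Upf3b, Smg5 and Smg9) that difference in iPHet was larger in size than the change with genotype.

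**Figure D3:**
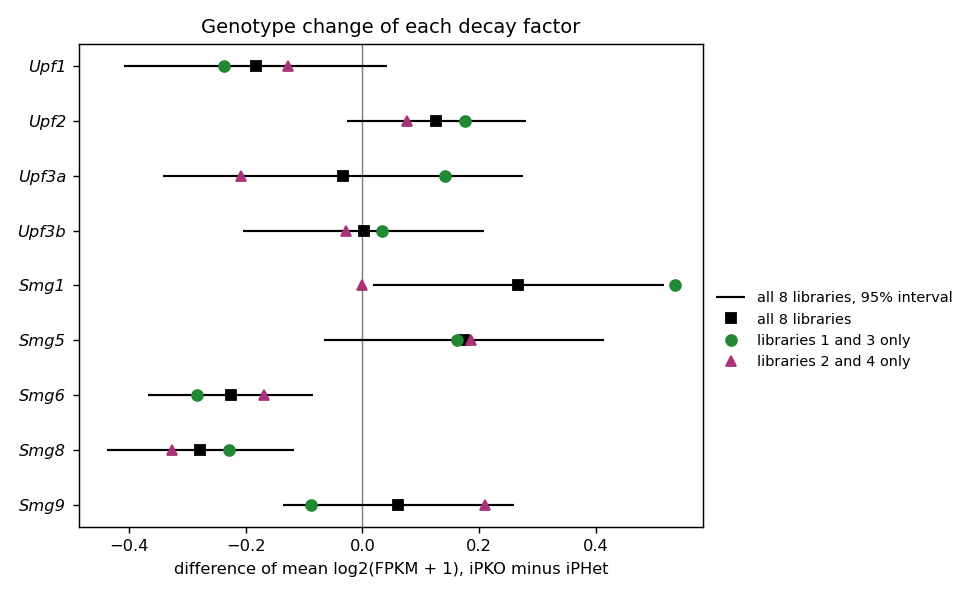
Change of each decay factor, as the difference of mean log2(FPKM + 1) between iPKO and iPHet (horizontal axis), over all 8 libraries (squares with 95% intervals from limma), libraries 1 and 3 only (circles) and libraries 2 and 4 only (triangles). Smg6 and Smg8 lie left of 0 in all 3 estimates, and Smg1 is at 0.54 in libraries 1 and 3 and at -0.00095 in libraries 2 and 4.

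Gene structure also differed between the members that fell. In GENCODE release vM21 the coding transcript with the longest open reading frame had a 3′ untranslated region of 1498 bases and 19 exons for Smg6 and of 221 bases and 4 exons for Smg8, beside medians of 923 bases and 9 exons over 11155 tested protein-coding genes. Smg1 had the longest at 4233 bases with 63 exons. Smg5 and Upf2 had 1230 and 1261 bases, Upf1 958, Upf3b 834, Upf3a 719 and Smg9 400. Transcripts annotated as NMD substrates were listed for 3 members (Smg1, Smg5 and Smg6), beside 29.7% of those genes, and retained-intron transcripts for 5 members, beside 60.8%. Values per transcript were not analysed here.

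In 6 other lists of RNA decay genes, 95 were tested and 4 were higher, 10 lower and 81 not called, that is 14.7% called beside 15.8% of all tested genes. Their median log2 change was -0.046, beside -0.044. With quantile normalization 7 were higher and 3 lower, and with median centring 4 and 3. Mov10, Rbm8a, Acin1, Magohb, Atf4 and Eif4a2 stayed called under both scalings, Cnot10 was lost with median centring (limma adjusted p = 0.0608), and Dhx34, Nbas, Sec13, Dcps, Ddx6, Parn and Srsf6 were lost with both. Pan2 was gained, higher, with both scalings, and Cnot1 and Hbs1l, higher, with quantile normalization only (limma adjusted p = 0.0458 and 0.0300). With the replicate number as a block 11 were higher and 13 lower, where 10.9% and 16.6% of all tested genes were. With the correlation within pairs 0 were called (9 at an unadjusted p under 0.05), beside 0.417% of all tested genes.

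Of 14 other NMD factors 4 fell, 0 rose and 10 were not called, that is 28.6% called beside 15.8% of all tested genes (9.53% lower). Their median log2 change was -0.19, beside -0.044 over all tested genes. It was -0.23 in libraries 1 and 3 and -0.10 in libraries 2 and 4. With the replicate number as a block 4 of the 14 were lower and 0 higher, where 16.6% and 10.9% of all tested genes were. These were Mov10, Nbas, Ncbp1 (limma adjusted p = 0.0254) and Ruvbl1 (0.0465), so they were not the same 4 genes. Of the 4 that fell in the fit without the block only Mov10 stayed called under both scalings. Mov10, a helicase that associates with UPF1, was 61.7, 59.96, 65.0 and 64.0 FPKM in iPHet 1 to 4 and 49.2, 42.9, 53.8 and 44.7 FPKM in iPKO 1 to 4, a fall without overlap (log2 change -0.39, SE 0.078, limma adjusted p = 0.014). Nbas, which takes part in NMD at the endoplasmic reticulum, fell from 4.29 ± 0.137 to 3.27 ± 0.144 FPKM (SD, n = 4 each). Dhx34, a helicase that promotes UPF1 phosphorylation, and Sec13 fell from means of 4.58 to 3.46 and of 27.6 to 21.8 FPKM. Mov10 and Nbas stayed called without any 1 library, while Dhx34 was lost without each of them and with the block (limma adjusted p = 0.0548). Sec13 was lost without 7 of 8 and with the block (0.0501).

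The exon junction complex marks splice junctions for UPF3B. Of 14 tested members 2 rose and 1 fell, that is 21.4% called beside 15.8% of all tested genes (6.3% higher and 9.53% lower). Rbm8a, which encodes the core subunit Y14, was 22.1, 24.8, 21.5 and 23.6 FPKM in iPHet 1 to 4 and 13.9, 18.3, 13.7 and 17.5 FPKM in iPKO 1 to 4. It fell by 0.52 on the log2 scale, with no overlap (SE 0.11, limma adjusted p = 0.015, and up to 0.0438 without any 1 library). Acin1, a peripheral component, rose from 123 ± 9.31 to 153 ± 9.61 FPKM, and Magohb, a copy of the core subunit gene Magoh, from 5.57 ± 0.282 to 7.07 ± 0.737 FPKM (SD, n = 4 each). Acin1 was lost without 5 of 8 libraries (limma adjusted p up to 0.0695). Magoh itself was not called at 27.4 and 24.0 FPKM, and both copies can exchange reads. The log2 change of Magoh was -0.49 in libraries 1 and 3 and 0.094 in libraries 2 and 4. That difference was called (limma adjusted p = 0.0036 for the interaction), as it was for 28.5% of all tested genes. Its SE, as for Smg1, measures the spread within pairs of libraries alone. Magohb was lost with the block (limma adjusted p = 0.065) and without 7 of 8 libraries.

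The enzymes downstream act on both ends of the RNA. The lists of decapping, of deadenylation and of the exosome and SKI had 11.8%, 11.8% and 0% called. Among all tested genes 15.8% were called, 6.3% higher and 9.53% lower. In the list of decapping and decay from the 5′ end 2 of 17 fell, namely Ddx6, a helicase that activates decapping (34.7 ± 1.29 to 29.1 ± 0.258 FPKM), and Dcps, the scavenger of cap remnants (23.0 ± 0.670 to 19.4 ± 1.37 FPKM; SD, n = 4 each). Xrn2 was not called at 56.0 and 44.9 FPKM (limma adjusted p = 0.0559). Among 17 deadenylation genes Cnot10, a subunit of the CCR4-NOT complex, rose from 40.7 ± 1.92 to 46.8 ± 0.577 FPKM, and Parn, a deadenylase, fell from 15.8 ± 0.268 to 13.9 ± 0.0843 FPKM (SD, n = 4 each). Pan2 was not called at 21.6 and 25.8 FPKM (limma adjusted p = 0.0603). It was called higher with quantile normalization (0.0334), with median centring (0.0257) and with the block (0.0423). With the block 5 of the 17 were higher and 1 lower, where 10.9% and 16.6% of all tested genes were. Dcps and Parn were lost without each single library, and Cnot10 without 7 of 8. Of 15 exosome and SKI genes, which act from the 3′ end, 0 were called, with Hbs1l at 33.4 and 38.6 FPKM, Exosc5 at 18.7 and 14.8 FPKM and Exosc2 at 22.6 and 17.1 FPKM. The block called 3 of these 15 higher and 2 lower, beside 10.9% and 16.6% of all tested genes.

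The final list held 18 protein-coding transcripts known as NMD substrates or as genes with such isoforms. Of these 1 rose, 2 fell and 15 were not called. That is 16.7% called beside 15.8% of all tested genes (6.3% higher and 9.53% lower). Their median log2 change was 0.00081. That median was -0.040 in libraries 1 and 3 and 0.066 in libraries 2 and 4. Eif4a2, a translation initiation helicase, was 408, 450, 396 and 434 FPKM in iPHet 1 to 4 and 565, 553, 550 and 527 FPKM in iPKO 1 to 4. It rose by 0.38 on the log2 scale with no overlap (SE 0.067, limma adjusted p = 0.009), and it hosts small nucleolar RNAs and overlaps Rfc4 (21.1 FPKM). Atf4, the stress response factor, fell from 282 ± 3.23 to 182 ± 40.8 FPKM, and the splicing factor Srsf6 from 185 ± 3.59 to 156 ± 5.73 FPKM (SD, n = 4 each). Atf4 was 146 and 147 FPKM in iPKO 1 and 3 and 218 and 216 FPKM in iPKO 2 and 4, and its call ended without any of 5 libraries (limma adjusted p up to 0.0554). Srsf6 was lost without 3 of 8 (up to 0.0555).

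**Figure D4:**
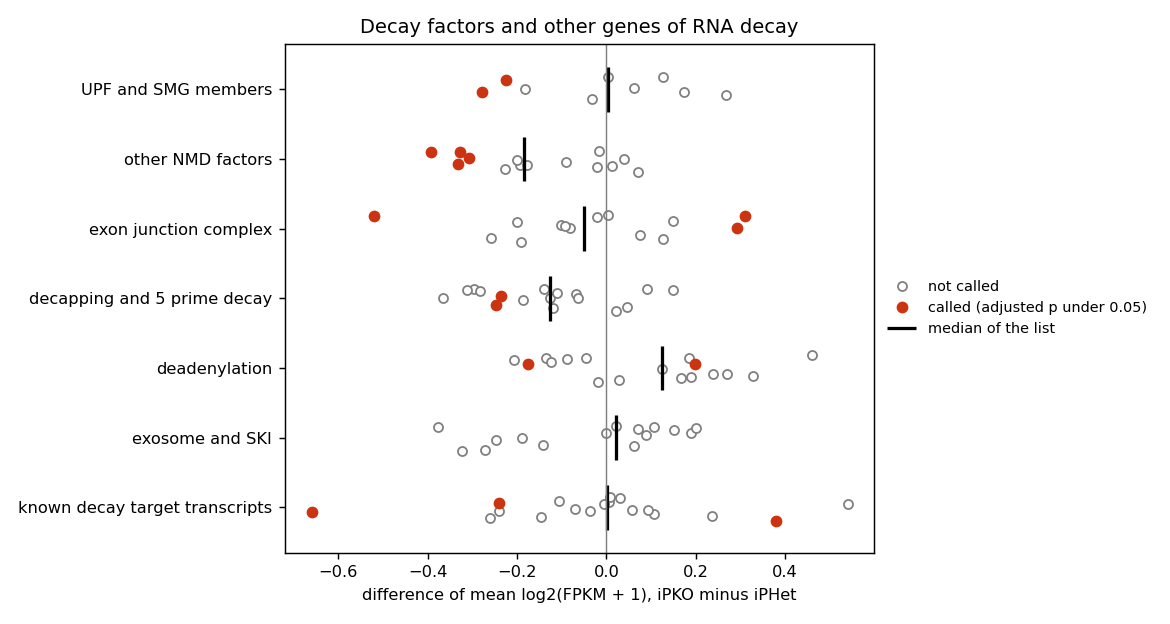
Change of each tested gene, as the difference of mean log2(FPKM + 1) between iPKO and iPHet (horizontal axis), for the 9 UPF and SMG members and 6 other lists (rows), filled red where called at a limma adjusted p under 0.05, with vertical bars at list medians. The members have 2 filled points, both lower, and the row of other NMD factors 4, all lower, with its median at -0.19.

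Across the 8 libraries the pattern most like the mean standardized level of the 9 members was that of Lifr (Pearson r = 0.99), Gspt1 (0.99), Tbl1xr1 (0.986), Trmt10a (0.985) and Snord107 (0.985), out of 8571 genes averaging 5 FPKM or more. These points share libraries and the odd and even sets, and the correlations are a description. Gspt1, which encodes the translation release factor eRF3a, averaged 77.2 FPKM over libraries 1 and 3 and 95.7 FPKM over libraries 2 and 4. Snord107 was listed at 0 in the odd-numbered libraries. Between members, the highest correlation was that of Smg6 with Smg8 (r = 0.909) and the lowest that of Smg1 with Smg6 (r = -0.843).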

How the data were processed

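The authors deposited 1 table per library holding, per the file headers, an FPKM value per gene with its bounds and status. Reads were paired, 100 bases each, per the labels' protocols, and Trimmomatic and the build mm10 are named, per the submitters' processing notes. Aligner, FPKM program, strand setting and scaling between libraries were not stated. From these tables, rows of 19 identifiers at several loci were summed (38991 identifiers, 96% of them in GENCODE vM21), and between 2 and 5 estimates per library had failed, none of them a member. The filter, a genotype mean of 1 FPKM or more, left 12462 genes. log2(FPKM + 1) was fitted in limma 3.58.1 (intensity trend, R 4.3.3) over all 8 libraries with no covariate, with Benjamini-Hochberg adjustment over all tested genes. The fit was tested on simulated data. Members and gene lists were chosen with earlier results of these data known.

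Named genes were all 9 members, every called gene of each list and, where fewer than 3 were called, those of smallest p up to 3, the 5 genes most alike in pattern, and Prmt5. Magoh, Ncbp1, Ruvbl1, Cnot1, the promoters, the ratio of Smg1 to Smg8 and the odd against even levels were chosen after values were seen. Deviations from genotype means correlated at 0.104, 0.162, 0.204 and 0.107 for the numbers 1 to 4 between genotypes, all above 0.1, so the numbers were taken as pairs from the data; the labels do not state it. Unlike numbers of the same set (1 with 3, 2 with 4) correlated between genotypes at 0.077, 0.086, 0.091 and 0.124, so these values largely follow the odd and even sets. Alternatives were another pseudocount, filter or scaling, the block, odd/even fits, pair averages, the correlation within pairs, leaving out libraries and, added after the data were seen, the middle of the bounds and the interaction of genotype with odd and even numbers. Exosc6 and other symbols without a match (Pym1, Aly, Thoc4 and Cnot9, some of them synonyms of listed genes) were not analysed here.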

Additional observations from a re-analysis of the deposited data

Results flagged for a closer look

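The change of Smg1 with genotype differed between the odd-numbered and the even-numbered libraries by 0.536 on the log2 scale (SE 0.0546, limma adjusted p = 0.0019 for the interaction, over 2 libraries per cell), and 28.5% of all tested genes had such a difference. The SE measures the spread within the pairs of libraries alone. Depth relative to iPHet 1 was 1.24 and 1.13 in iPKO 1 and 3, where Smg1 was high, and 1.08 and 0.871 in iPKO 2 and 4; its part in the result was not tested. In 20 groups of 4 values (9 members and the ratio of Upf3a to Upf3b, in each genotype) 0 had a single library far from the others, where chance gives about 1 in 20.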

How the results depend on the processing

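The number of members called was 2 with a pseudocount of 0.1, with no filter or a minimum of 5 FPKM, in protein-coding genes alone and with the middle of the bounds. It was 0 with quantile normalization and with median centring, 4 with the replicate block and with an odd/even term (1 higher and 3 lower in both), 5 in the odd-numbered libraries alone (2 higher and 3 lower), and 0 with pair averages, with pair averages and an odd/even term and with the correlation within pairs (limma; 0, 0 and 1 at an unadjusted p under 0.05). Without single libraries it ran from 0 to 2. Of the 95 list genes 14 were called in the fit reported, beside 15.8% of all tested genes (shares of all tested genes in brackets below). The number was 7 with median centring (14.3%) and 24 with the replicate block (27.5%). With an odd/even term 35 were called (37.9%), in libraries 1 and 3 there were 49 (42.7%) and in libraries 2 and 4 there were 26 (36.8%). Either pair average (0.0562% and 0.0481%) and the correlation within pairs (0.417%) left 0. In these fits 3, 6 and 9 list genes had an unadjusted limma p under 0.05. Without single libraries 6 to 9 were called (10.2% to 11.9%). The block changed no other member's call than those of Upf1 and Smg5. Smg6 was called in 9 and Smg8 in 11 of 22 alternatives, and both kept their direction in all 22, as did Upf1, Upf2 and Smg5. Alternatives that changed only the filter, the gene set or the terms of the fit left the estimate itself unchanged. The direction could not turn in these, as in the pair averages, and the others reused the same libraries. The change had the same sign in the odd-numbered and the even-numbered libraries for 5 members, for 4 with the middle of the bounds and for 7 with median centring. Members near no change turned sign: Upf3a to 0.0159 with quantile normalization, to 0.0106 with median centring, to 0.142 in the odd-numbered libraries and over a range of -0.14 to 0.068 without single libraries (0.0163 without iPHet 4, 0.0028 without iPKO 3); Upf3b to -0.0281 in the even-numbered libraries and over -0.0419 to 0.0513 without single libraries; Smg9 to -0.0873 in the odd-numbered libraries and over -0.00245 (without iPKO 4) to 0.111 without single libraries; and Smg1 to -0.00095 in the even-numbered ones. The ratio of Upf3a to Upf3b turned to 0.131 in the odd-numbered libraries and ran from -0.116 to 0.0312 without single libraries. It was -0.0368 with the replicate block (exact sign-flip permutation p = 0.75). The causes were not tested. The number of libraries, and how far libraries 1 and 3 or 2 and 4 are separate, limit all calls.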
